A study of Mus musculus with 16 samples.

Results

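The genes described here are Ucp1, which encodes the proton channel of brown adipocyte mitochondria, and 9 genes that act with or around it in heat production: Prdm16, Ppargc1a, Dio2, Cox7a1, Gpd2, Adrb3, Kcnk3, Esrra and Acot11. They were picked by name, as the rows that carry 1 of these 10 symbols, from a table of RPKM values (reads scaled to transcript length and library depth, a unit read from the values since the files name none) that holds 29060 gene symbols. The 10 genes have 74 transcript entries among 168326 in the table. The study set primary preadipocytes that had received Fgf8b, a secreted fibroblast growth factor, against control cultures, in cells of interscapular brown fat and of inguinal white fat. The 16 libraries form 4 groups of 4: inguinal white cells with Fgf8b (white Fgf8b), their controls (white control), interscapular brown cells with Fgf8b (brown Fgf8b) and their controls (brown control). All mice, those of the controls included, were C57BL/6N animals with a UCP1 reporter. Whether reads of the reporter fall on the Ucp1 entries was not tested. The sources used here do not give the dose, the time or what control cultures received.

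Brown fat makes heat by letting protons pass the inner mitochondrial membrane through UCP1 without making ATP, so that fuel is burned for warmth. In the animal, noradrenaline starts this through beta-adrenergic receptors and cAMP, locally activated thyroid hormone strengthens it, and Prdm16, the coactivator encoded by Ppargc1a and estrogen-related receptors set up the gene programme in differentiating brown and beige adipocytes. Preadipocytes are the precursors of these cells and are known to express little of this programme before they differentiate.

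Library depth, worked out from the smallest steps of the values, was 13.7 to 20.1 megareads, and 95.6 to 96.0% of low values (50 reads or fewer) were whole reads to within 0.1. Brown control 15 lay farthest from its own group, with a root mean square log2 distance of 0.279 against 0.189 to 0.236 in the other 15 libraries. The labels call the cells adipocytes while the design text calls them preadipocytes, and the markers of mature fat cells bear on this. Of 10 such markers, Lep, Retn and Cfd were at 0 in all libraries and Adipoq reached at most 0.118 RPKM. The 11 fibroblast and precursor markers had rows and were tested in both depots, with group means from 0.130 RPKM (Zfp423, white Fgf8b) to 1863 RPKM (Vim, white Fgf8b). Thy1, Vim and Pdgfra rose with Fgf8b in both depots, while 7 of the 11 fell in white cells and 8 in brown cells, Col1a1 and Ly6a among them. The summed mature adipocyte markers, made up mainly of Lpl, Fabp4 and Cebpa, were 28.1 to 31.1 RPKM in white Fgf8b against 179 to 192 RPKM in white control libraries, and 33.4 to 37.7 RPKM in brown Fgf8b against 96.1 to 108 RPKM in brown control libraries. White libraries carry numbers 1 to 8 and brown libraries 9 to 16, so the depot cannot be told apart from what runs with library number. The labels name no separate culture for each library, while the design text speaks of 3 cultures, so the p-values reflect variation among these libraries that may be technical.

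The RefSeq table of promoters (build GRCm38.p6) held windows for 8 of the 10 genes, 10 windows in all. The windows of Ucp1, Dio2 and Ppargc1a are printed because they are those among the 10 that hold the core of the cAMP response element, the element through which cAMP signalling acts on transcription. They come from RefSeq, and each runs from 250 bases before the start to the base before it, 5′ to 3′ on the gene's strand. Capitals mark TGACG or its reverse complement, the palindrome TGACGTCA that contains both, and AGGTCA, the core bound by many nuclear receptors.
Ucp1: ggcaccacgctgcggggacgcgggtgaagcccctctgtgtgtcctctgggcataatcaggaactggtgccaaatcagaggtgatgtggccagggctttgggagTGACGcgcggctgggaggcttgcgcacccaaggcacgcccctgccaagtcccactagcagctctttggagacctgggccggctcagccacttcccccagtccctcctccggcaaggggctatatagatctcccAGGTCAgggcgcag
Dio2: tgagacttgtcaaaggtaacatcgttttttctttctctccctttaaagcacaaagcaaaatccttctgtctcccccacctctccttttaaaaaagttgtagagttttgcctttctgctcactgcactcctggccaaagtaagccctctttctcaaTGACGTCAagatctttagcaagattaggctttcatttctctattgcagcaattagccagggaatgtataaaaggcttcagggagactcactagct
Ppargc1a: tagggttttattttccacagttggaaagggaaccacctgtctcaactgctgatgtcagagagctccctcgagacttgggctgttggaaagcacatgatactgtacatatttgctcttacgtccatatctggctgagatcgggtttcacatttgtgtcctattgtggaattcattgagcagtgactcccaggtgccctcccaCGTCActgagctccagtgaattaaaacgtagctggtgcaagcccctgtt
The Ucp1 window lies at chr8:83290098-83290347 on the plus strand, the Dio2 window at chr12:90739039-90739288 on the minus strand and the Ppargc1a window at chr5:51567726-51567975 on the minus strand. Dio2, alone among the 10 windows, held the palindrome TGACGTCA, which stands in 1.55% of all 32851 windows of this length, and its first base lies 95 bases before the start. TGACG on either strand, which stands in 17.8% of all windows, was also found in Ucp1 and Ppargc1a, 147 and 49 bases before the start. AGGTCA on either strand (14.02% of all windows) was found in Ucp1 alone. The other motifs were searched on both strands too. The estrogen-related receptor motif AAGGTCA, which contains the nuclear receptor core and stands in 4.08% of windows, had no match in the 10 windows. Neither did the ETS factor motif CCGGAAG, found in 6.91% of windows, nor the AP-1 motif TGANTCA, found in 6.75% of windows. The E-box CACGTG, found in 6.02% of windows, had 1 match, in an Acot11 window. These matches describe letters in the sequence and not sites that were measured.

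Ucp1 RNA was measured in cells of both depots and was higher with Fgf8b in both. Its RefSeq transcript NM_009463 stood at 6.95, 5.45, 6.77 and 5.84 RPKM in the 4 white Fgf8b libraries, against 2.41, 2.12, 2.63 and 2.08 RPKM in the 4 white control libraries. In brown Fgf8b libraries it stood at 4.18, 4.08, 4.58 and 4.97 RPKM, against 2.35, 2.93, 1.91 and 2.46 RPKM in brown control libraries. No Fgf8b library of either depot overlapped its controls, and the white Fgf8b libraries were the highest of all. These levels rest on 155 to 224 reads per library in white Fgf8b, 62 to 80 in white control, 101 to 120 in brown Fgf8b and 50 to 76 in brown control.

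The tests were made on the summed RPKM of all entries of a symbol, as differences of log2(RPKM + 0.5), with limma over 15222 genes and Benjamini-Hochberg adjustment, and a gene was called at an adjusted p below 0.05. Because of the added 0.5, these differences understate the change of genes at low levels. Where a gene is lower in one depot than in the other, its difference of responses can thereby come out too large or too small. Ucp1 rose by 1.37 in white cells (SE 0.12, adjusted p = 4.89e-09, limma) and by 0.86 in brown cells (SE 0.12, adjusted p = 2.24e-06, limma). The response was smaller in brown cells than in white cells (log2 -0.51, SE 0.16, adjusted p = 0.0210, limma). All 3 Ucp1 entries gave nearly the same ratio of Fgf8b to control means, 2.68 to 2.71 in white and 1.85 to 1.86 in brown cells. Entries of a gene share reads, here and below, so their ratios are not independent of each other. In bulk RNA a change in the number of cells that express a gene and a change in the RNA per cell cannot be told apart.

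Between depots, Ucp1 averaged 4.45 ± 0.41 RPKM in brown Fgf8b and 6.25 ± 0.72 RPKM in white Fgf8b libraries (SD, n = 4 each), which put brown cells lower by a log2 difference of -0.46 (adjusted p = 0.00262, limma). Among controls it averaged 2.41 ± 0.42 RPKM in brown and 2.31 ± 0.26 RPKM in white cells (SD, n = 4 each), a difference of 0.05 that did not pass (adjusted p = 0.787, limma), with 2 standard errors spanning -0.18 to 0.28. The order of the groups was therefore white Fgf8b, brown Fgf8b and then both controls, which did not separate from each other. Exons of Ucp1 overlap no other annotated gene, and none of its 31-base words occurs in transcripts of other genes.

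**Figure D1:**
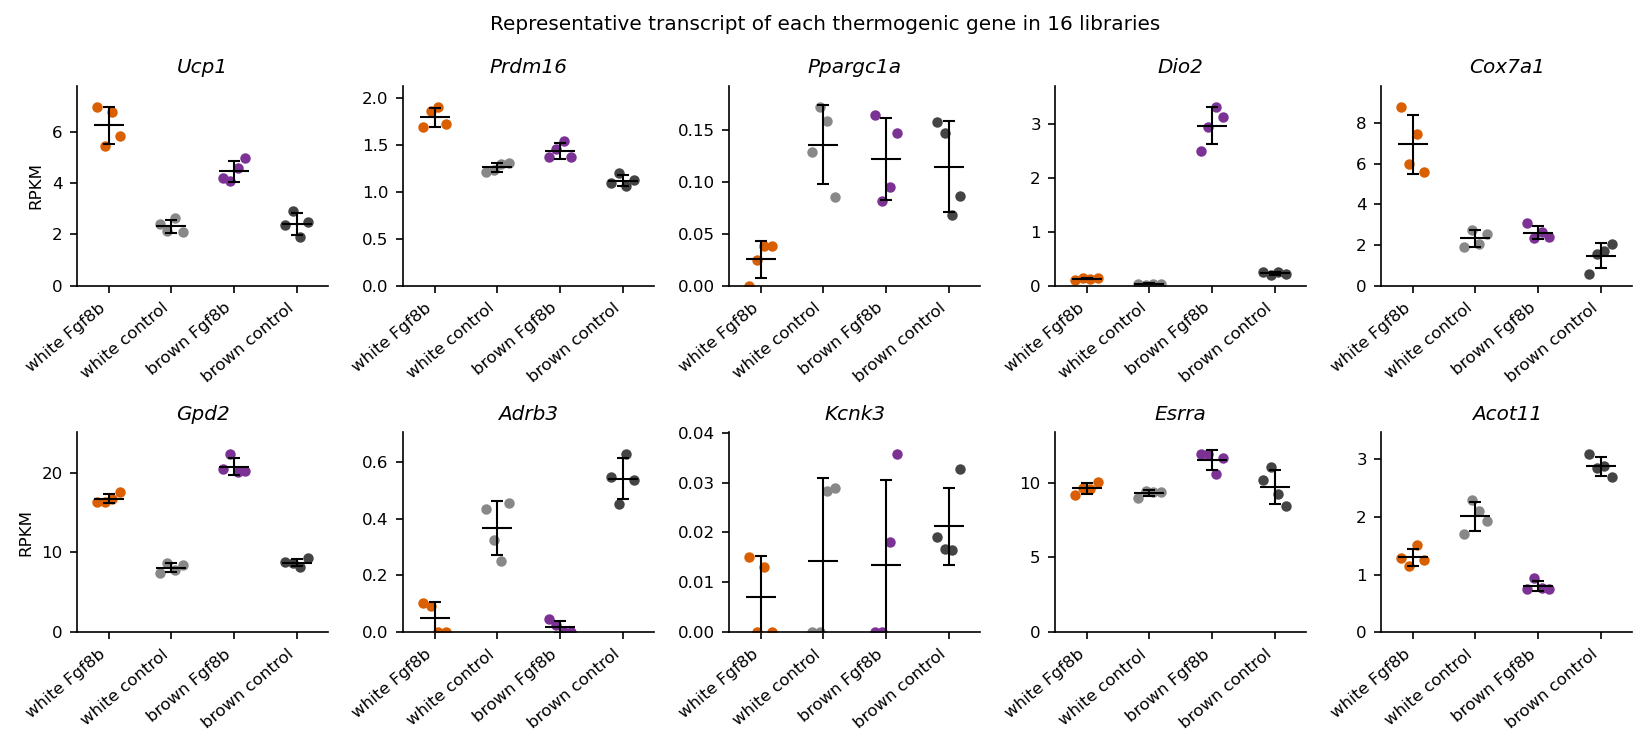
RPKM of the representative transcript of each of the 10 genes (vertical axes, each with its own scale from 0) in the 16 libraries by group (horizontal axes). Points are libraries and bars the mean with SD (n = 4). Ucp1 is highest in white Fgf8b libraries at 5.45 to 6.95 RPKM, Dio2 in brown Fgf8b libraries at 2.49 to 3.30 RPKM, and Kcnk3 stays at or below 0.0357 RPKM.

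Of the 10 genes, 9 passed the filter of at least 0.5 RPKM, summed over entries, in at least 4 libraries. By this sum, in which entries share reads, Ppargc1a, Dio2 and Adrb3 reached 0.5 RPKM in only 10, 9 and 8 libraries. They passed through the groups where they were high. The RefSeq transcript of Ppargc1a alone reached at most 0.172 RPKM in any library. With Fgf8b, 5 of the 9 rose and 3 fell in white cells, where 65.7% of all genes tested were called (36.3% higher, 29.5% lower). In brown cells 6 rose and 2 fell, where 71.4% of all genes were called (36.7% higher, 34.7% lower). With so many genes called in the whole table, a called gene is the usual case here, and the counts are not particular to thermogenic genes. Fgf8b and control libraries did not overlap for 8 of the 10 genes in white cells and 7 in brown cells, and for 63.1% and 61.4% of all genes tested. The median log2 difference over the 9 was 0.55 in white and 0.39 in brown cells, beside 0.04 and 0.01 over all genes tested. The depots share no control library. Ucp1, Prdm16, Dio2, Cox7a1 and Gpd2 rose in both depots, Adrb3 and Acot11 fell in both, Esrra rose in brown cells and Ppargc1a fell in white cells.

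**Figure D2:**
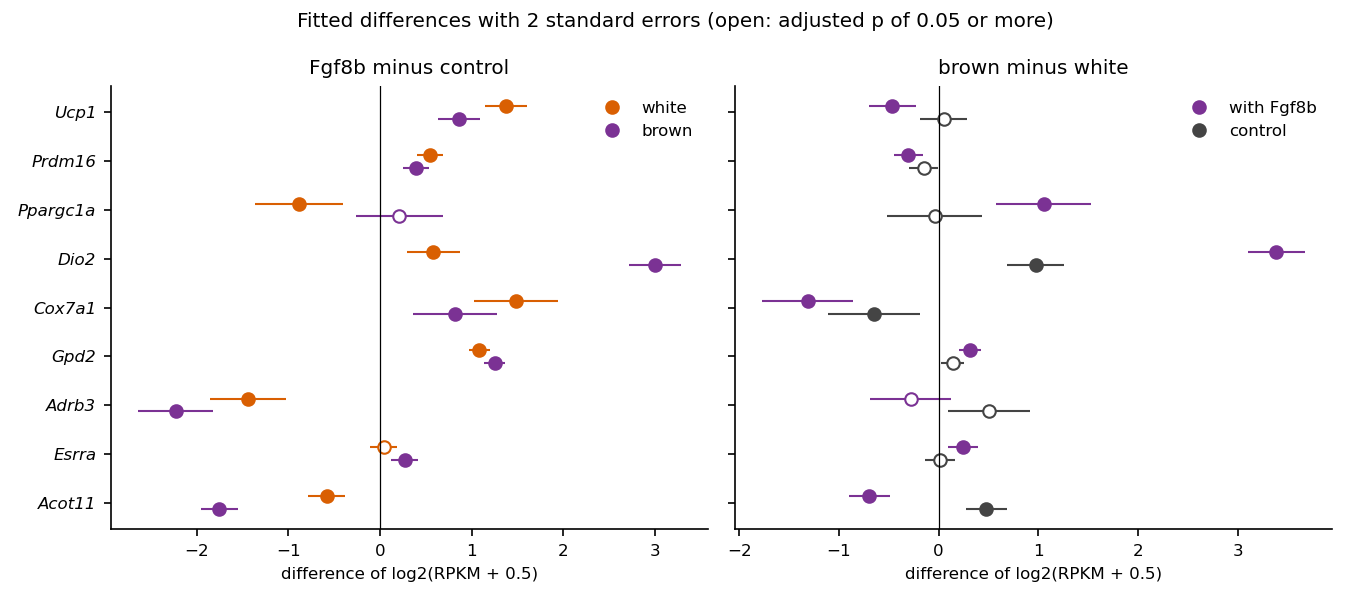
Fitted differences of log2(RPKM + 0.5) for the 9 genes tested, for Fgf8b minus control in each depot (left) and brown minus white under each treatment (right). Bars are 2 standard errors, filled points have an adjusted p below 0.05 and open points do not. Dio2 stands apart at 2.996 in brown cells, and Adrb3 and Acot11 lie below 0 in both depots at left.

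Among the transcriptional regulators, Prdm16, a zinc finger protein that specifies brown adipocytes, was moderately higher with Fgf8b. NM_001177995 stood at 1.69, 1.86, 1.90 and 1.72 RPKM in white Fgf8b against 1.21, 1.23, 1.29 and 1.31 RPKM in white control libraries. It stood at 1.37, 1.46, 1.54 and 1.36 RPKM in brown Fgf8b against 1.09, 1.19, 1.06 and 1.13 RPKM in brown control libraries. Fgf8b libraries lay above their controls in both depots without overlap. Prdm16 rose by 0.55 in white cells (SE 0.07, adjusted p = 1.97e-06, limma) and by 0.39 in brown cells (SE 0.07, adjusted p = 8.43e-05, limma). The 2 responses were not shown to differ (difference -0.16, 2 standard errors from -0.36 to 0.05, adjusted p = 0.259, limma). With Fgf8b, brown cells were lower than white cells by a log2 difference of -0.30 (adjusted p = 0.00171, limma). The 14 Prdm16 entries with at least 50 reads had ratios of 1.27 to 1.76 in white and 1.10 to 1.49 in brown cells, a wider range than for Ucp1, and all lay above 1.

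Ppargc1a, which encodes the coactivator that drives mitochondrial biogenesis, was scarce, and its response differed between depots. NM_008904 had 0, 3, 5 and 4 reads in white Fgf8b against 13, 22, 19 and 10 reads in white control libraries. In brown Fgf8b libraries it had 17, 8, 9 and 14 reads against 14, 15, 7 and 9 reads in brown control libraries. White Fgf8b libraries thus lay below all others, and the brown groups overlapped. Pooled over 4 libraries, 12 against 64 reads gave a depth-corrected ratio of 0.186 in white cells (exact 95% interval 0.0912 to 0.347). Such intervals cover counting error only, since reads without molecular identifiers are not independent molecules. Ppargc1a fell by 0.88 in white cells (SE 0.24, adjusted p = 0.00307, limma). In brown cells the difference of 0.21 did not pass (2 standard errors from -0.26 to 0.69, adjusted p = 0.437, limma). The responses differed by 1.10 (brown minus white, SE 0.34, adjusted p = 0.0165, limma). With Fgf8b, brown cells were higher than white cells by a log2 difference of 1.055 (adjusted p = 0.00111, limma). In the mean RPKM of NM_008904, which was not itself tested here, they were 4.84-fold higher.

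Esrra, the estrogen-related receptor alpha gene, whose product works with the Ppargc1a coactivator on genes of oxidative metabolism, was among the more abundant of the 10 and moved little. In white Fgf8b libraries NM_007953 stood at 9.19, 9.68, 9.57 and 10.1 RPKM, against 8.98, 9.43, 9.36 and 9.40 RPKM in white control libraries. In brown Fgf8b libraries it stood at 11.9, 11.9, 10.6 and 11.7 RPKM, against 10.2, 11.04, 9.23 and 8.42 RPKM in brown control libraries. Groups overlapped in both depots. The white difference of 0.04 did not pass (2 standard errors from -0.11 to 0.19, adjusted p = 0.680, limma) and turned to -0.01 under 2 other scalings. In brown cells Esrra rose by 0.27 (SE 0.07, adjusted p = 0.00374, limma). The responses were not shown to differ (0.23, 2 standard errors from 0.02 to 0.44, adjusted p = 0.102, limma). Without brown control 15 the brown rise was 0.20 (adjusted p = 0.0140, limma). Exons of Esrra overlap those of Trmt112 on the other strand over 3.74% of their bases together with a microRNA gene, and Trmt112 averaged 30.6 RPKM in brown Fgf8b against 21.4 RPKM in brown control libraries. The sources used here do not say how strand was treated in counting, and the part of Trmt112 reads in the result was not tested.

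Dio2, the deiodinase that turns thyroxine into active thyroid hormone within brown fat, had the largest ratio of Fgf8b to control means in each depot among those of the 10 genes that rose. NM_010050 stood at 2.49, 2.94, 3.30 and 3.11 RPKM in brown Fgf8b libraries, against 0.250, 0.196, 0.248 and 0.214 RPKM in brown control libraries. In white cells it stood at 0.109, 0.144, 0.128 and 0.138 RPKM with Fgf8b, against 0.0330, 0.0174, 0.0371 and 0.0380 RPKM in controls. Every brown Fgf8b library stood far above all others, and white Fgf8b libraries stayed below the brown controls. Reads behind these values were 231 to 279 per library in brown Fgf8b and 18 to 23 in brown control, but only 11 to 16 in white Fgf8b and 2 to 4 in white control. The ratio of means was 13.04 in brown cells, and pooled reads in white cells (55 against 13) gave 4.19 (exact 95% interval 2.26 to 8.36). Dio2 rose by 2.996 in brown cells (SE 0.14, adjusted p = 7.67e-13, limma) and by 0.58 in white cells (SE 0.14, adjusted p = 0.00145, limma). The responses differed by 2.42 (brown minus white, SE 0.20, adjusted p = 5.17e-08, limma). On the RPKM scale the brown ratio of means exceeded the white ratio by less, a log2 of 1.66, and a fit on the representative transcript alone gave 2.002 (adjusted p = 7.52e-10, limma). All 3 entries gave ratios of 12.1 to 14.01 in brown cells.

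The depots differed in Dio2 under either treatment. With Fgf8b the mean was 2.96 ± 0.34 RPKM in brown and 0.130 ± 0.016 RPKM in white cells (SD, n = 4 each), a ratio of 22.8 and a log2 difference of 3.39 (adjusted p = 1.03e-12, limma). Among controls it was 0.227 ± 0.027 RPKM in brown and 0.0314 ± 0.0096 RPKM in white cells (SD, n = 4 each), a log2 difference of 0.97 (adjusted p = 2.80e-05, limma). The order was brown Fgf8b, brown control, white Fgf8b, white control, with no overlap between neighbours. Of the 8 genes with a RefSeq window, Dio2 is the one whose window holds the whole palindromic cAMP response element. This describes its sequence and was not tied to these values by a measurement.

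Adrb3, the beta-adrenergic receptor typical of fat cells, moved the other way and was near absent with Fgf8b. NM_013462 had 2, 1, 0 and 0 reads in brown Fgf8b libraries against 21, 20, 28 and 24 reads in brown control libraries. In white Fgf8b libraries it had 5, 5, 0 and 0 reads against 19, 18, 13 and 23 reads in white control libraries. Controls and Fgf8b libraries did not overlap in either depot. In brown cells the pooled ratio was 0.0329 (3 against 93 reads, exact 95% interval 0.00666 to 0.0991), and in white cells it was 0.136 (10 against 73 reads, exact 95% interval 0.0624 to 0.264). Adrb3 fell by 2.23 in brown cells (SE 0.21, adjusted p = 1.27e-08, limma) and fell by 1.44 in white cells (SE 0.21, adjusted p = 5.17e-06, limma). The gap between the responses, -0.79 (brown minus white, adjusted p = 0.0421, limma), lay near the threshold and lost its call under 13 of 24 other settings, where adjusted p over all 24 ran from 0.0183 to 0.170. Without brown control 15 it was -0.78 (adjusted p = 0.0562, limma). Between brown and white controls the difference of 0.51 did not pass (2 standard errors from 0.10 to 0.92, adjusted p = 0.0648, limma). Exons of Adrb3 share 24.85% of their bases with the gene model Gm45470 on the other strand, whose part in the result was not tested.

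Among the mitochondrial and lipid effectors, Cox7a1, a subunit of cytochrome c oxidase found in muscle and brown fat, was higher with Fgf8b in both depots. NM_009944 stood at 8.78, 6.01, 7.47 and 5.58 RPKM in white Fgf8b against 1.92, 2.76, 2.06 and 2.56 RPKM in white control libraries. It stood at 3.07, 2.36, 2.62 and 2.42 RPKM in brown Fgf8b against 0.597, 1.56, 1.71 and 2.04 RPKM in brown control libraries. Groups were apart in both depots, and brown control 9 was the lowest library with 3 reads. The transcript is short, so these levels rest on 33 to 56 reads in white Fgf8b, 11 to 20 in white control, 13 to 18 in brown Fgf8b and 3 to 12 in brown control. Cox7a1 rose by 1.48 in white cells (SE 0.23, adjusted p = 1.43e-05, limma) and by 0.82 in brown cells (SE 0.23, adjusted p = 0.00380, limma). Without brown control 9 the brown rise was 0.51 (adjusted p = 0.00783, limma). The gap between the responses, -0.66 (brown minus white), did not pass with all libraries (adjusted p = 0.125, limma), and was -0.98 without brown control 9 (adjusted p = 0.00175, limma).

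Brown cells had less Cox7a1 than white cells with Fgf8b, 2.62 ± 0.32 RPKM in brown and 6.96 ± 1.46 RPKM in white cells (SD, n = 4 each), a log2 difference of -1.31 (adjusted p = 0.000103, limma). Among controls the means were 1.48 ± 0.62 RPKM in brown and 2.33 ± 0.40 RPKM in white cells (SD, n = 4 each), and the groups overlapped. Their log2 difference of -0.65 passed (adjusted p = 0.0354, limma). It became -0.34 without brown control 9 (adjusted p = 0.110), -0.58 without white control 3 (adjusted p = 0.0945) and -0.60 without white control 7 (adjusted p = 0.0843, limma for all 3).

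Gpd2, the mitochondrial glycerol phosphate dehydrogenase that carries cytosolic electrons into the respiratory chain, about doubled with Fgf8b. By mean RPKM of the representative transcript it was the most abundant of the 10 with Fgf8b. Among controls it came below Esrra, at 8.08 against 9.29 RPKM in white and 8.74 against 9.72 RPKM in brown cells. NM_010274 stood at 16.4, 16.3, 16.8 and 17.6 RPKM in white Fgf8b against 7.44, 8.67, 7.82 and 8.38 RPKM in white control libraries. It stood at 20.4, 22.4, 20.1 and 20.2 RPKM in brown Fgf8b against 8.78, 8.69, 8.20 and 9.27 RPKM in brown control libraries. Each group was tight, with an SD of 3.48 to 6.83% of its mean, and Fgf8b and control libraries were far apart. Gpd2 rose by 1.253 in brown cells (SE 0.06, adjusted p = 4.19e-13, limma) and by 1.08 in white cells (SE 0.06, adjusted p = 4.96e-12, limma). The responses were not shown to differ (0.17, 2 standard errors from 0.01 to 0.34, adjusted p = 0.107, limma), and 4 of 26 other settings called the difference. Without brown control 15 it was 0.20 (adjusted p = 0.0480, limma). All 17 Gpd2 entries had ratios above 2, from 2.27 to 2.57 in brown and 2.04 to 2.64 in white cells.

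Acot11, an acyl-CoA thioesterase that is induced by cold in mouse brown fat and restrains its energy use, fell with Fgf8b. In brown Fgf8b libraries NM_025590 stood at 0.7497, 0.937, 0.774 and 0.757 RPKM, against 3.09, 2.85, 2.88 and 2.69 RPKM in brown control libraries. In white Fgf8b libraries it stood at 1.30, 1.16, 1.51 and 1.26 RPKM, against 1.70, 2.30, 2.10 and 1.94 RPKM in white control libraries. Groups were apart in both depots, and brown controls held the most. Acot11 fell by 1.75 in brown cells (SE 0.10, adjusted p = 1.53e-11, limma) and fell by 0.58 in white cells (SE 0.10, adjusted p = 5.79e-05, limma), and the responses differed by -1.17 (brown minus white, SE 0.14, adjusted p = 5.09e-06, limma). The depot order turned round with treatment: brown cells were higher than white cells among controls (log2 difference 0.48, adjusted p = 0.00120, limma) and lower with Fgf8b (-0.69, adjusted p = 1.58e-05, limma). Fam151a overlaps 20.9% of Acot11 exon bases on the other strand, and its summed RPKM was 1.04 to 1.52 in brown Fgf8b against 3.31 to 7.72 in brown control libraries. The part of Fam151a reads in the result was not tested.

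Kcnk3, a tandem-pore potassium channel that limits thermogenesis in adipocytes, had 0 to 2 reads per library. NM_010608 summed to 2 reads in white Fgf8b, 4 in white control, 3 in brown Fgf8b and 5 in brown control libraries. It failed the filter, and no difference was detectable at this depth.

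**Figure D3:**
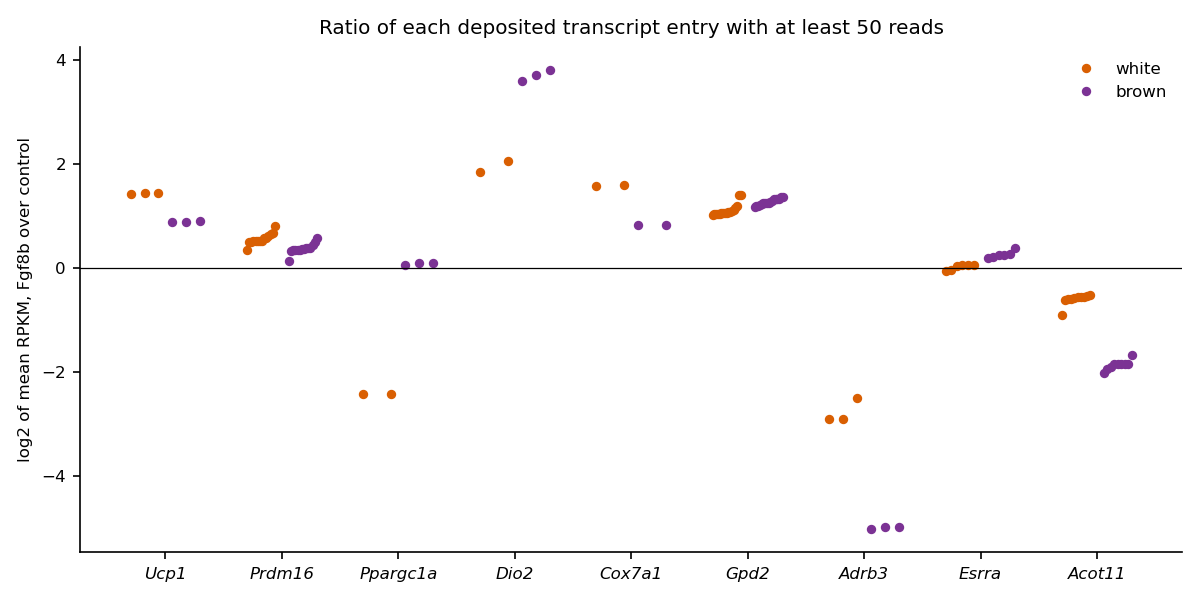
Log2 ratio of mean RPKM, Fgf8b over control (vertical axis), of each deposited transcript entry with at least 50 reads over the 8 libraries of its depot, for the 9 genes with such an entry (horizontal axis), in white and brown cells. Entries of a gene share reads. Those of Ucp1 and Cox7a1 lie close together, those of Prdm16 spread from 1.10 to 1.76 as ratios, and Dio2 lies highest in brown cells.

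Between depots, fewer of the 10 genes were called among controls than with Fgf8b. Of the 9 tested, Dio2 and Acot11 were higher in brown controls and Cox7a1 was lower, where 33.9% of all genes were called (18.1% higher, 15.9% lower). With Fgf8b, Dio2, Ppargc1a, Gpd2 and Esrra were higher in brown cells and Ucp1, Prdm16, Cox7a1 and Acot11 were lower, 8 of 9 where 51.6% of all genes were called (26.9% higher, 24.7% lower). The test of the difference of the responses called 5 of 9, where 34.9% of all genes were called (17.1% higher, 17.8% lower): Dio2 and Ppargc1a responded higher, and Ucp1, Adrb3 and Acot11 lower, in brown than in white cells. The comparisons share libraries, so these counts are not independent.

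Genes whose pattern over the 16 libraries was most like Ucp1 were ranked by the root mean square difference of centred log2(RPKM + 0.5). The ranking covered the 13791 tested genes whose summed RPKM averaged 1 or more. The closest 5 were Pdlim2, a PDZ and LIM domain protein (0.15), Chrnb1, a subunit of the muscle acetylcholine receptor (0.16), Clic1, an intracellular chloride channel protein (0.17), Rps6ka2, a kinase downstream of ERK (0.17), and Thy1, a surface marker of fibroblasts and preadipocytes (0.17). Thy1 averaged 746 ± 16.7 RPKM in white Fgf8b and 269 ± 13.2 RPKM in white control libraries (SD, n = 4 each). In brown cells it averaged 555 ± 4.76 RPKM with Fgf8b and 294 ± 7.33 RPKM in controls (SD, n = 4 each). Of the genes described here, Gpd2 came at rank 504 and Prdm16 at rank 898, while Dio2 (rank 13251) and Acot11 (rank 12725) were among the least like Ucp1.

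**Figure D4:**
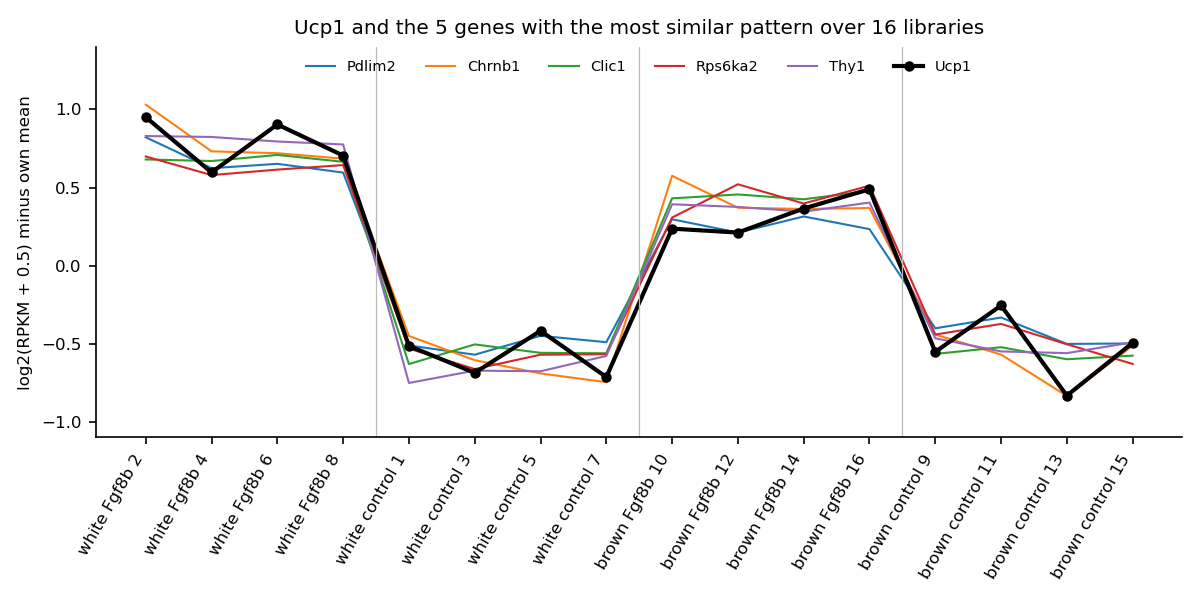
Summed log2(RPKM + 0.5) minus each gene's own mean (vertical axis) in the 16 libraries (horizontal axis) for Ucp1 (black, with points) and the 5 genes whose pattern was most similar. All 6 lie highest in white Fgf8b, next in brown Fgf8b, and lowest in the control libraries of both depots.

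The genes around the 10 were taken from 10 pathway lists of 179 genes, all of which have a row. No list was tested against other genes, and over all genes tested 36.3% rose and 29.5% fell in white cells and 36.7% rose and 34.7% fell in brown cells. Of the other uncoupling protein and carrier genes, 7 of 8 were tested, with 4 rising and 1 falling in white cells and 3 rising and 3 falling in brown cells. Ucp2, an uncoupling protein homologue of many tissues, rose by 0.82 in white cells (adjusted p = 3.58e-09, limma) and fell by 0.97 in brown cells (adjusted p = 2.55e-10, limma). It averaged 4.40 RPKM in white Fgf8b against 2.47 RPKM in white control, and 1.82 RPKM in brown Fgf8b against 3.56 RPKM in brown control libraries, and its response differed by -1.79 (brown minus white, adjusted p = 1.87e-10, limma). Ucp3, the muscle homologue, was at 0 in the mean of every group. Slc25a30, a mitochondrial carrier related to the uncoupling proteins, rose by 0.85 in white and 0.998 in brown cells. Slc25a5, an ADP/ATP carrier with processed pseudogenes that could share its reads, rose by 0.72 in white and 1.16 in brown cells. The count of 1 falling gene in white cells is Slc25a27, and ran from 0 to 2 under other settings.

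Of 26 brown fat effector genes, 18 were tested, with 3 rising and 6 falling in white cells and 6 rising and 6 falling in brown cells (median log2 difference -0.08 and 0.02). Over all genes tested, 65.7% were called in white and 71.4% in brown cells, so the share of called effector genes was no higher than in the whole table. Among the effector genes that failed the filter were Cidea, Elovl3, Cox8b, Otop1, Plin5 and Ckmt2, with group means of at most 0.0858 RPKM. They were named after their values were seen, and the 18 tested genes of the list passed the filter. Acot2, a mitochondrial thioesterase whose near-identical copy Acot1 could share its reads, averaged 3.17 RPKM in white Fgf8b against 13.7 RPKM in white control libraries, and 1.52 RPKM in brown Fgf8b against 10.9 RPKM in brown control libraries. Acot2 fell in both (log2 -2.04 in white and -2.66 in brown cells). Kng2, a kininogen, fell in both (-1.81 in white and -2.13 in brown cells). Ckmt1, a mitochondrial creatine kinase, averaged only 0.0215 RPKM in brown Fgf8b against 0.271 RPKM in brown control libraries, and fell by 2.26 in brown cells. Its white difference of -0.90 (adjusted p = 0.0430, limma) lost the call without 1 of 6 libraries, 3 white Fgf8b (2, 6 and 8) and 3 white control (1, 5 and 7). It was -0.50 without white control 1 (adjusted p = 0.202, limma).

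Of 34 regulators linked to Prdm16 and Ppargc1a, 33 were tested, with 8 rising and 17 falling in white cells and 13 rising and 16 falling in brown cells, with medians of -0.17 in white and -0.08 in brown cells. Over all genes tested, 36.3% rose and 29.5% fell in white cells, and 36.7% rose and 34.7% fell in brown cells. Cebpa, a driver of adipocyte differentiation, averaged 4.30 RPKM in white Fgf8b against 11.85 RPKM in white control libraries and 5.01 RPKM in brown Fgf8b against 15.3 RPKM in brown control libraries, and fell in both (-1.46 in white and -1.61 in brown cells). Zfp423, a preadipocyte regulator that holds back the thermogenic programme, fell in both (-1.18 in white and -2.07 in brown cells). Estrogen-related receptor partners and mitochondrial targets counted 12 of 17 tested rising and 2 falling in white cells, and 11 rising and 2 falling in brown cells (median 0.25 and 0.41), where 36.3% of all genes rose in white and 36.7% in brown cells, and 29.5% and 34.7% fell. Idh3a, a subunit of a citric acid cycle dehydrogenase, rose by 0.79 in white and 0.86 in brown cells. Pdk4, the kinase that blocks pyruvate entry into the cycle, fell in both (-1.74 in white and -1.43 in brown cells).

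Beta-adrenergic and cAMP genes were mixed, with 29 of 30 tested, 8 rising and 12 falling in white cells and 8 rising and 11 falling in brown cells, a share of called genes near the 65.7% and 71.4% of the whole table. Adcy7, an adenylyl cyclase, averaged 21.6 RPKM in white Fgf8b against 7.95 RPKM in white control libraries and 26.4 RPKM in brown Fgf8b against 8.53 RPKM in brown control libraries. Adcy7 thus rose, by 1.42 in white and 1.64 in brown cells. Nr4a3, an orphan nuclear receptor gene known to be induced by cAMP, averaged at most 0.561 RPKM in any group. It fell by 1.79 in white cells (adjusted p = 2.04e-08, limma), and its brown difference of 0.21 did not pass (adjusted p = 0.272, limma). G0s2, an inhibitor of lipolysis, fell in both (-0.71 in white and -1.73 in brown cells).

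Among thyroid hormone genes 9 of 12 were tested, with 1 rising and 6 falling in white cells and 2 rising and 5 falling in brown cells (median -0.60 and -0.40). In all, 7 of 9 were called in each depot, beside 65.7% of all genes in white and 71.4% in brown cells. The gene that rose in both was Slc16a10, a transporter of aromatic amino acids and thyroid hormone, by 1.27 in white and 1.29 in brown cells. Thra, a thyroid hormone receptor gene overlapped by Nr1d1 on the other strand, averaged 14.2 RPKM in brown Fgf8b against 31.5 RPKM in brown control libraries and 26.2 RPKM in white Fgf8b against 40.4 RPKM in white control libraries. Dio3, which inactivates thyroid hormone, fell in both (-1.08 in white and -0.40 in brown cells). Dio2 thus rose where Dio3 and Thra fell, in both depots.

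Respiratory chain isoform genes showed 6 rising and 2 falling of 12 tested in white cells, and 4 rising and 5 falling in brown cells, again near the 65.7% and 71.4% of all genes called. Cox6a2, the muscle form of a cytochrome oxidase subunit, averaged 0.168 RPKM in white Fgf8b against 6.35 RPKM in white control libraries and 0.196 RPKM in brown Fgf8b against 5.28 RPKM in brown control libraries. It fell in both (-4.10 in white and -3.86 in brown cells), opposite to Cox7a1, which belongs to the same enzyme complex. Cox4i2, the isoform known from lung, rose by 1.92 in white cells, and its brown difference of -0.10 did not pass. Cox6b2, the testis isoform, fell by 1.68 in brown cells, and its white difference of -0.04 did not pass. Cox7a2, the general counterpart of Cox7a1, averaged 127 RPKM in white Fgf8b against 82.9 RPKM in white control libraries and 130 RPKM in brown Fgf8b against 88.8 RPKM in brown control libraries, so it stood well above Cox7a1 per length in every group.

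Glycerol phosphate and glycerolipid genes around Gpd2 gave 6 rising and 2 falling of 10 tested in each depot (median 0.39 and 0.38), where 36.3% of all genes rose in white and 36.7% in brown cells. Gpd1, the cytosolic partner of Gpd2 in the shuttle, averaged at most 0.174 RPKM in any group and its differences did not pass. Slc25a13, a carrier of the malate aspartate shuttle, rose by 0.99 in white and 1.22 in brown cells. Gpam, which starts glycerolipid synthesis, fell in both (-0.97 in white and -1.54 in brown cells). Of 13 other tandem-pore potassium channels 5 were tested, with 3 rising in white cells, where the other 2 did not pass, and 3 rising and 1 falling in brown cells. Without white Fgf8b 6, 1 of them fell in white cells. Kcnk2 averaged 3.59 RPKM in white Fgf8b against 1.11 RPKM in white control libraries and 4.47 RPKM in brown Fgf8b against 0.982 RPKM in brown control libraries, and Kcnk5 rose as well, by 0.98 in white and 1.23 in brown cells. Of 14 other acyl-CoA thioesterases 10 were tested, with 4 rising and 3 falling in white and 4 rising and 4 falling in brown cells. Acot4, which averaged at most 0.609 RPKM in any group, rose by 1.24 in white and 1.19 in brown cells, opposite to Acot2 and Acot11.

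**Figure D5:**
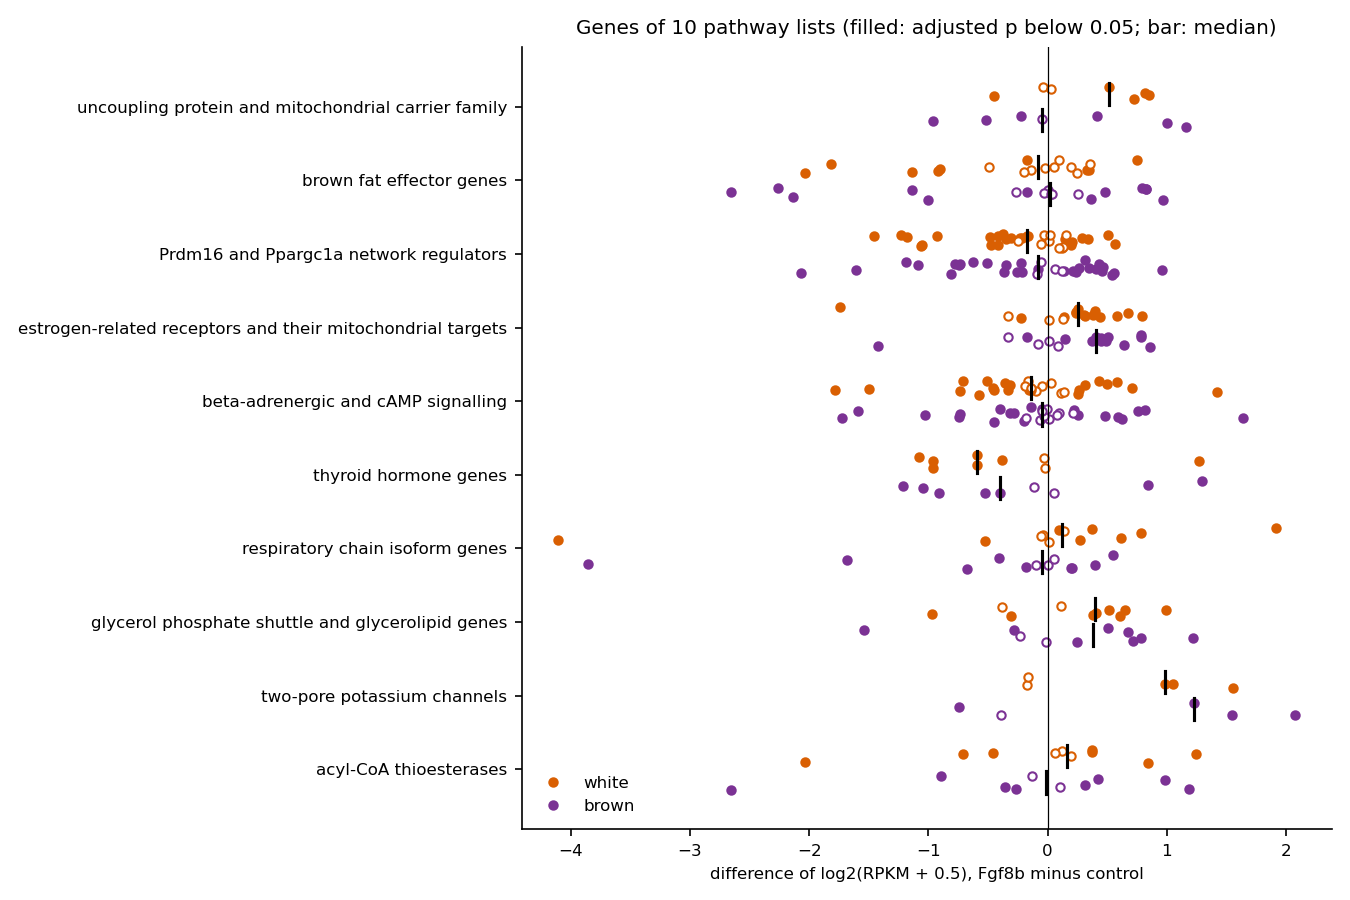
Difference of log2(RPKM + 0.5), Fgf8b minus control (horizontal axis), of each tested gene of the 10 pathway lists (vertical axis) in white and brown cells. Filled points have an adjusted p below 0.05, open points do not, and black bars mark list medians. Cox6a2 at -4.10 and -3.86 lies lowest, and most estrogen-related receptor targets lie above 0.

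Summed markers of other cell types were low beside those of preadipocytes and fibroblasts, and moved with treatment. Among controls the endothelial, Schwann cell and skeletal muscle sums lay above the mean of the Ucp1 transcript. That mean was 2.31 RPKM in white and 2.41 RPKM in brown controls. Summed RPKM of 6 endothelial markers was 2.40 to 2.92 in white Fgf8b against 11.1 to 11.98 in white control, and 1.47 to 1.89 in brown Fgf8b against 7.64 to 8.90 in brown control libraries. For 6 Schwann cell markers it was 2.70 to 3.61 in white Fgf8b against 8.73 to 10.4 in white control, and 3.66 to 4.65 in brown Fgf8b against 12.9 to 15.5 in brown control libraries. For 8 skeletal muscle markers, with Myod1 and Myh4 at 0 throughout, it was 2.65 to 3.16 in white Fgf8b against 5.64 to 8.16 in white control, and 2.33 to 2.86 in brown Fgf8b against 8.99 to 11.3 in brown control libraries. For 8 leukocyte markers, with Cd3e at 0 throughout, it was 1.79 to 2.37 in white Fgf8b against 2.38 to 3.16 in white control, and 1.63 to 2.26 in brown Fgf8b against 3.27 to 5.52 in brown control libraries. The 11 preadipocyte and fibroblast markers summed to 3874 to 4058 in white Fgf8b against 5397 to 5521 in white control, and 2997 to 3083 in brown Fgf8b against 3975 to 4514 in brown control libraries. All these sums were lower with Fgf8b, but not every marker fell. In each depot 1 endothelial and 1 leukocyte marker rose, as did 4 of the 11 preadipocyte and fibroblast markers in white and 3 in brown cells. The part of these markers in the results on the 10 genes was not tested.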

How the data were processed

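The authors deposited 1 table of values per transcript entry, with decimal commas, for 16 libraries. No header or label names the unit. It was read from the values as RPKM, since low values of entries with an annotated length are mostly whole multiples of 1 read over length and depth. Of the 74 entries of the 10 genes, 72 came out in whole reads. Entries without an annotated length, all RefSeq ones included, were given a length that makes their reads whole. This count therefore does not bear on the unit. Per the labels' protocols, total RNA was column-purified and libraries were made with a TruSeq RNA kit, and CASAVA and bcl2fastq stand in the submitters' processing notes. The sources used here do not give the aligner, counting tool, genome build or strand use, so the RefSeq windows are not tied to the authors' build. Of 168326 entries, 23172 (13.8%) without a gene symbol and 808 with repeated accessions were left out, of which 145 of 299 accessions had unequal values in white and 0 in brown libraries, and whether the depots were processed separately is not given. Since 203 entries belong to both kinds, 144549 entries were left, which were summed to 29060 symbols.

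The filter asked for a summed RPKM of 0.5 or more in 4 or more libraries and left 15222 genes. These were tested as log2(RPKM + 0.5), fitting 4 group means with limma 3.58.1 (R 4.3.3), trended and robust, and Benjamini-Hochberg adjustment over all genes tested. The 5 contrasts were fitted. The procedure was also run on simulated reads of 1 transcript per gene, and the outcome is not used here. The genes changed in it had a mean of at least 1 RPKM, so it does not cover genes at lower levels. Levels are those of the RefSeq transcript with the highest mean. Pooled reads were compared by an exact conditional interval (scipy 1.17.1). Pathway lists were described by counts and medians only. Named genes were the 2 called genes with the largest change per list and depot, plus the 5 most like Ucp1. The 2 were taken from genes with a mean summed RPKM of at least 1. A gene that the rule names is not reported here. The genes and lists were chosen with earlier results of these data known. Genes named beyond this rule (Ucp3, Gpd1, Cox7a2, Slc25a27 and the brown fat genes below the filter) were chosen after their values were seen. Alternatives were other pseudocounts, filters, scalings, entry choices and moderation, a fit of 1 depot alone, and leaving out each library in turn.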

Additional observations from a re-analysis of the deposited data

Results flagged for a closer look

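The response to Fgf8b differed between depots for 5 of the 9 genes tested, by the test of the difference itself (brown minus white, log2, limma). The same test called 34.9% of all genes tested. The difference was -0.512 for Ucp1, 1.096 for Ppargc1a, 2.415 for Dio2, -0.789 for Adrb3 and -1.172 for Acot11. That of Adrb3 lost its call under 13 of 24 other settings. For Ucp1, Adrb3 and Acot11 both depots moved the same way, for Dio2 both rose, and for Ppargc1a the white fall passed while the brown difference did not.

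Single libraries stood apart from the other 3 of their group in 4 of 40 groups examined, where chance marks about 1 in 20. In brown Fgf8b 12, Gpd2 stood at 22.37 RPKM and Acot11 at 0.9368 RPKM, each the highest of its group. Kcnk3 stood at 0.03269 RPKM in brown control 15, which is 2 reads against 1 read in each other library of its group. The rate of 1 in 20 cannot be taken to hold for values of so few reads. Esrra stood at 8.983 RPKM in white control 1, the lowest of its group.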

How the results depend on the processing

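The counts of the 10 genes called kept within 1.5 times of their values in all 5 comparisons under the alternatives run, from 6 to 8 in white and 7 to 8 in brown cells, and so did the counts over all genes, from 9362 to 10389 in white and 10088 to 11288 in brown cells. All called responses of the 9 genes to Fgf8b within a depot kept their direction and their call wherever the gene passed the filter. Esrra in white cells turned to -0.011 with median-of-ratios factors and to -0.010 with upper-quartile factors. Leaving out 1 library turned the direction of small differences that did not pass. Between brown and white controls, Ucp1 ran from -0.044 to 0.149, Ppargc1a from -0.224 to 0.111 and Esrra from -0.068 to 0.080. Cox6b2 in white cells ran from -0.131 to 0.065 and Cox4i2 in brown cells from -0.278 to 0.180. The cause was not tested. Adrb3 lost the call on its difference of responses with a pseudocount of 0.1 (-1.27, adjusted p = 0.170) and with no filter (-0.79, adjusted p = 0.0554). Cox7a1 lost the call between controls with no filter (-0.65, adjusted p = 0.0655) and without trend and robust moderation (-0.65, adjusted p = 0.0579). Scaling moved the median of all genes by less than 0.1, but the split of calls in brown cells became 4866 higher and 5940 lower with upper-quartile factors, against 5582 higher and 5282 lower as reported. No paired analysis was possible because the groups share no replicate number and no label pairs libraries of different numbers. Depth limits Kcnk3, Ppargc1a, Adrb3, the white Dio2 and the brown Cox7a1 values, which rest on few reads. Ckmt1, Nr4a3 and Acot4 were low as well, with group means of at most 0.609 RPKM.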
